A study of Mus musculus with 12 samples.

Results

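The set described here is 9 genes of transcription factors: Gata2, Gata3, Gata4 and Gata6 of the GATA family, Bcl11a and Bcl11b, the COUP-TF genes Nr2f1 and Nr2f2, and Prdm8. They were taken by symbol from the array annotation, with the brightest probe set kept for each symbol, and are 9 of 22180 genes that had 1 symbol. They were chosen by their measured levels, in that several separate wound arrays from uninjured arrays, so every difference between wound and uninjured groups below is a description that carries no test. Only comparisons among the 3 wound groups are tested, and the wound vehicle arrays in those also entered the difference that chose the genes. Tests were run on genes whose level exceeded the median of the array on 3 or more of the 12 arrays. That filter kept 13153 genes and 8 of the 9 factors, all but Bcl11a.

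Gene expression was measured on Affymetrix whole-transcript arrays in SKPs, precursor cells of the dermis that are obtained from skin and form floating spheres. The cells were isolated from mice aged 9 months of a strain given in the labels as CD57/Bl6, in 4 groups of 3 biological replicates: uninjured skin with vehicle, and wounded skin with vehicle, with trimebutine maleate or with alprostadil. Trimebutine is a drug that acts on opioid receptors and ion channels of the gut, and alprostadil is prostaglandin E1. All groups were grown as secondary spheres in medium that held the growth factors EGF (20 ng/ml) and FGF2 (40 ng/ml). By its title, the study looked for drugs that help skin repair. The sources used here do not state doses, treatment times or the skin site of each group, so an effect of injury and one of site cannot be told apart. Each level below is an RMA log2 value of 1 probe set, where 1 unit is a doubling, and levels of different genes are not set against each other.

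GATA factors are zinc-finger proteins that bind short DNA elements with GATA at their core. Gata2 and Gata3 are best known from blood and T cell development, and Gata4 and Gata6 from heart and gut. Bcl11a and Bcl11b are zinc-finger repressors that work with chromatin remodelling complexes, and Bcl11b is required for T cell commitment and is expressed in developing skin. COUP-TF proteins are orphan nuclear receptors that bind repeats of the nuclear receptor element and shape regional identity, Nr2f2 in venous and mesenchymal cells and Nr2f1 in neural tissue. Prdm8 belongs to the PR-domain family and is known as a repressor in neurons.

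Promoter sequences of 7 of the 9 factors were taken by symbol from RefSeq (build GRCm38.p6). Gata4 and Gata6 were left out of the promoter search, which does not show that RefSeq lacks a promoter for either. The 250 bases before the annotated start are printed for 3 factors: Bcl11b and Prdm8, whose wound and uninjured levels lay furthest apart in each direction, and Nr2f2, the only one of the 3 with a match to a searched motif. They lie at chr12:108003415-108003664 (minus strand), chr5:98180619-98180868 (plus strand) and chr7:70366747-70366996 (minus strand), and each is written from 5′ to 3′ with a match in capitals.
Bcl11b: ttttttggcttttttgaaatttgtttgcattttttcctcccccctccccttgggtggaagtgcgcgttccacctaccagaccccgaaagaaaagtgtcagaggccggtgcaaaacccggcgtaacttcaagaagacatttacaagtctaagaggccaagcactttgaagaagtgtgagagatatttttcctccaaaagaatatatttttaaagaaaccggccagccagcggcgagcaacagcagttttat
Prdm8: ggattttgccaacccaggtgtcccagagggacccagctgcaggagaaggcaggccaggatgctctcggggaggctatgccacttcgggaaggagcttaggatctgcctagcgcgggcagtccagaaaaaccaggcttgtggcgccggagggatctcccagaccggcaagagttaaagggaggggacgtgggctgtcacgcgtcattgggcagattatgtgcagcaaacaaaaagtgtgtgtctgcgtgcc
Nr2f2: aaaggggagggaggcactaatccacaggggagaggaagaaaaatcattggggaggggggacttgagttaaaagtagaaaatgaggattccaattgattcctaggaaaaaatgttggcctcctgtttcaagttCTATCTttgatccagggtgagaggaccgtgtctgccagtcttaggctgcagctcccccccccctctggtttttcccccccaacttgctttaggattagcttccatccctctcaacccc
The capitals in Nr2f2 mark a GATA element read on the opposite strand, starting 118 bases before the start of the gene. The motifs searched on both strands were the GATA element (AGATAA or TGATAA or AGATAG or TGATAG), the COUP-TF direct repeat (AGGTCA, any base, then AGGTCA again) and the single AGGTCA that the repeat contains, the Bcl11 element TGACCA, and the E-box CATATG. Of 32851 promoters of the same length, 26.5% held a GATA element, 0.0335% the direct repeat, 14% the single AGGTCA, 11.4% the Bcl11 element and 3.46% the E-box. Only 1 other match was found among the 7 factors, a Bcl11 element 73 bases before the more downstream of the 2 listed starts of Nr2f1. The Bcl11b window has a GC content of 44.8%, the Nr2f2 window 50% and the Prdm8 window 59.6%. A match describes letters in the window and shows no binding, and the windows without a match lack only these letters.

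Across the 12 arrays, 6 of the 9 factors had no overlap between the 9 wound arrays and the 3 uninjured arrays. Gata2, Gata6, Nr2f2 and Prdm8 were higher on every wound array, and Bcl11a and Bcl11b were lower on every wound array. Among all tested genes 2.56% had no such overlap, 1.29% higher and 1.27% lower, and since this separation chose the factors, nothing is read from the count. Gata3, Gata4 and Nr2f1 overlapped, Nr2f1 by 0.04 log2 units only. By the size of the mean difference between the 3 wound groups and uninjured vehicle, Bcl11b (-2.23) exceeded 99.9% of tested genes, Prdm8 (1.42) 99.4% and Gata6 (1.19) 99.0%, while Gata3 (-0.04) exceeded 23.5%.

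**Figure D1:**
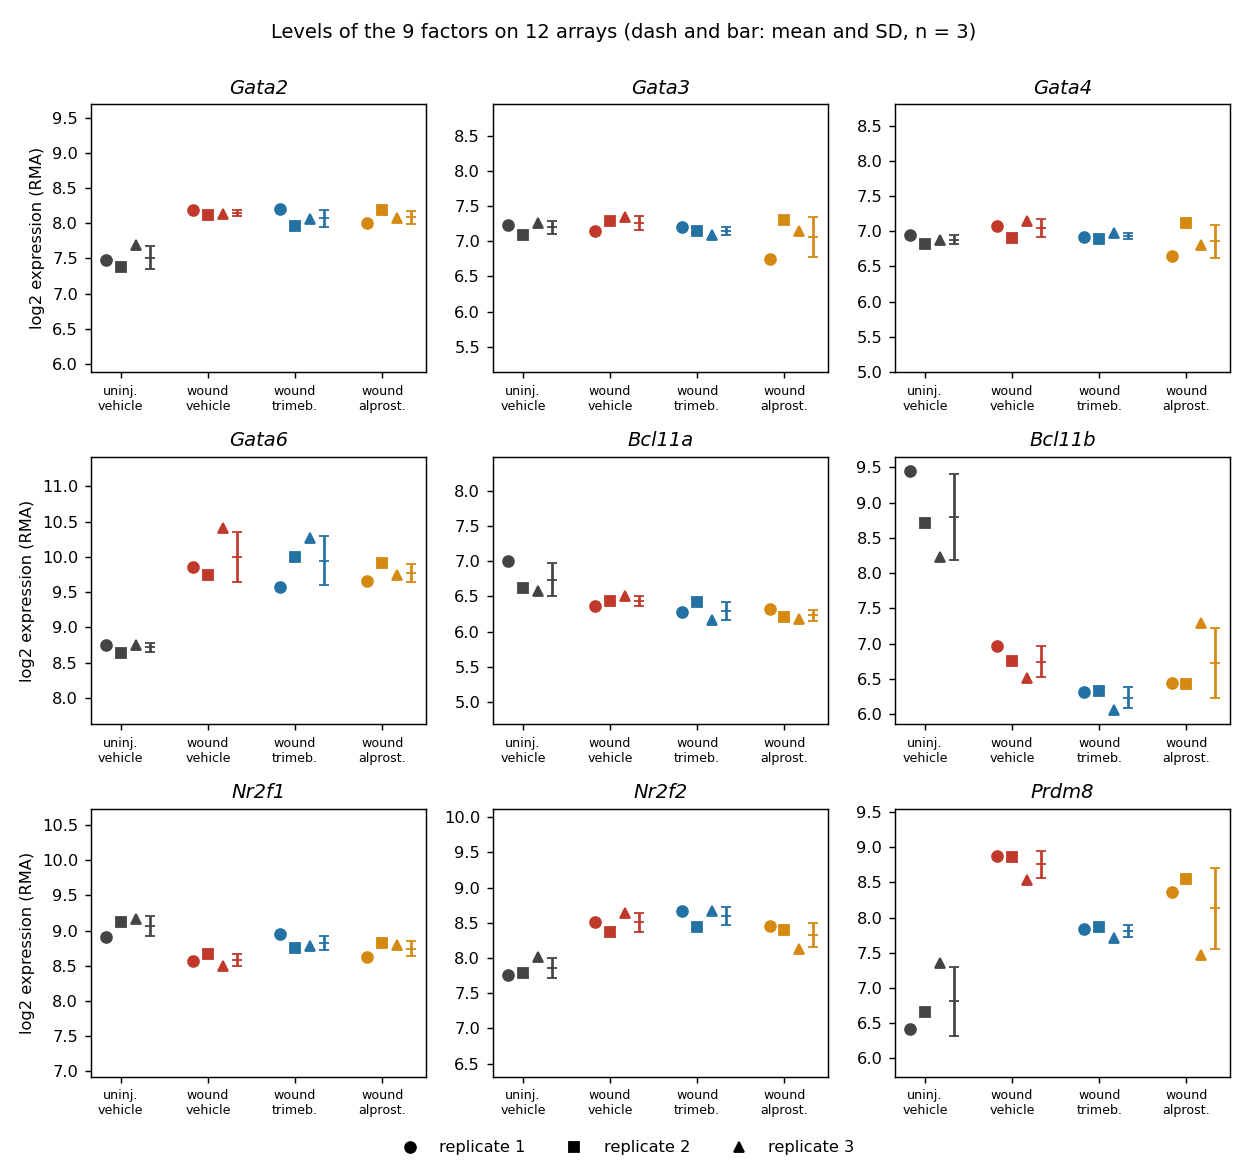
Log2 level (vertical axis, the same span of log2 units in each panel) of the 9 factors on each of the 12 arrays, by group (horizontal axis), with symbols for replicates, a dash for the group mean and a bar for its SD. Bcl11b lies between 8.22 and 9.44 on the uninjured arrays and between 6.06 and 7.29 on the wound arrays, while Gata3 and Gata4 overlap in all 4 groups.

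**Figure D2:**
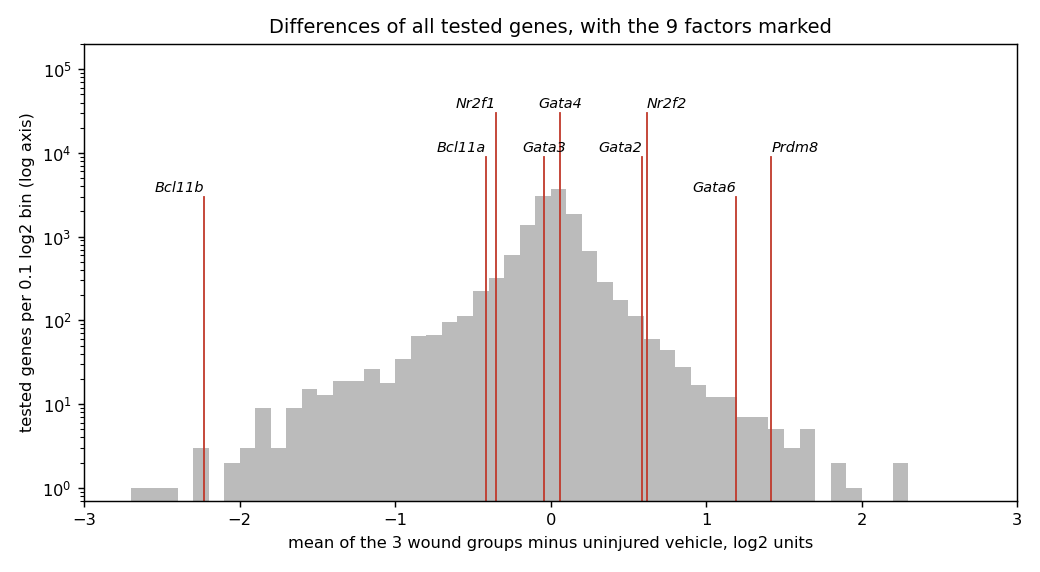
Number of tested genes (vertical axis, log scale) in each 0.1-unit bin of the difference between the mean of the 3 wound groups and uninjured vehicle (horizontal axis, log2 units), with red lines at the 9 factors. Bcl11b at -2.23 lies in the lower tail, Gata6 at 1.19 and Prdm8 at 1.42 in the upper tail, and Gata3 and Gata4 near the centre.

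Gata6, a factor of heart, gut and smooth muscle lineages, was the GATA gene with the widest separation. Its levels on the uninjured arrays were 8.75, 8.64 and 8.75, and on the wound vehicle arrays 9.86, 9.75 and 10.40. Trimebutine arrays read 9.57, 9.999 and 10.26, and alprostadil arrays 9.66, 9.92 and 9.74. All 9 wound arrays lay above the uninjured ones, with a gap of 0.82 log2 units between the nearest arrays. The uninjured arrays were tightly placed (8.72 ± 0.06, SD, n = 3), whereas wound vehicle (10.002 ± 0.35) and trimebutine (9.94 ± 0.35) spread more widely. The mean wound level was 2.28-fold that of uninjured vehicle, a difference of 1.19 log2 units (standard error of the limma fit, SE, 0.16). The 3 wound groups overlapped with each other. In bulk RNA, a change in the number of cells that carry a transcript and a change in its level per cell cannot be told apart. This holds here and for the other factors.

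Gata2, a factor of blood progenitors, mast cells and endothelium, stood at 7.47, 7.38 and 7.69 in uninjured vehicle and at 8.19, 8.12 and 8.12 in wound vehicle. Trimebutine arrays read 8.20, 7.95 and 8.06, and alprostadil arrays 8.004, 8.19 and 8.07. Every wound array exceeded every uninjured array, by at least 0.26, and the 3 wound groups overlapped. The mean difference was 0.59 (SE 0.08), or 1.5-fold.

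Gata3, which directs T helper cells and epidermal differentiation, had group means of 7.19 ± 0.09 in uninjured vehicle, 7.26 ± 0.10 in wound vehicle, 7.14 ± 0.06 with trimebutine and 7.06 ± 0.29 with alprostadil. Its arrays overlapped in all 4 groups, and a second Gata3 probe set differed by -0.02 between the wound mean and uninjured vehicle. Gata4, a cardiac and endodermal factor, had means of 6.88 ± 0.06, 7.04 ± 0.12, 6.93 ± 0.04 and 6.85 ± 0.23 in the same order of groups, again with overlap throughout. On alprostadil replicate 1 both genes had their lowest level of the 12 arrays, 6.74 for Gata3 and 6.65 for Gata4.

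Relatives and cofactors of GATA factors formed a list of 12 genes, all on the array and 10 of them tested. In limma none of the 10 passed an adjusted p of 0.05 for wound vehicle against uninjured vehicle, and 3 had an unadjusted p under 0.05. Of all tested genes 0.0456% passed and 13.0% had an unadjusted p under 0.05. Trps1, a GATA-type repressor, differed by -0.65 (SE 0.12, adjusted p = 0.113) in wound vehicle, and by -0.58 (SE 0.10, adjusted p = 0.0569) in the mean of the wound groups, with no overlap of wound and uninjured arrays. Lmo4, an adaptor of LIM-domain complexes, differed by -0.60 (adjusted p = 0.23) in wound vehicle. The median of the 10 genes was 0.05, and that of all tested genes 0.01. In the drug comparisons none passed either, with 0 at an unadjusted p under 0.05 for trimebutine and 1 for alprostadil, shares that were 9.43% and 2.75% over all genes; Zfpm2, a cofactor of GATA4, differed by -0.24 (adjusted p = 0.599) and -0.39 (adjusted p = 0.998), and Lmo2 by 0.22 (adjusted p = 0.648) with trimebutine.

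Bcl11b had the largest difference of the 9 factors. The uninjured arrays read 9.44, 8.72 and 8.22, the wound vehicle arrays 6.97, 6.75 and 6.52, the trimebutine arrays 6.31, 6.32 and 6.06, and the alprostadil arrays 6.44, 6.43 and 7.29. All uninjured arrays lay above all wound arrays, with a gap of 0.93 between uninjured replicate 3 and alprostadil replicate 3. The mean wound level was 4.69-fold lower, a difference of -2.23 (SE 0.25). The gene was above the array median on 6 of the 12 arrays, so many of its wound levels were dim. Uninjured replicate 1 was the highest array, and over the 4 groups the pooled SD was 0.42, larger than for 88.7% of tested genes. Within the wound groups, all 3 trimebutine arrays were below all wound vehicle and all alprostadil arrays.

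Bcl11a, the paralogue that silences fetal globin, read 7.001, 6.62 and 6.58 in uninjured vehicle, 6.37, 6.44 and 6.51 in wound vehicle, 6.27, 6.42 and 6.16 with trimebutine, and 6.31, 6.20 and 6.17 with alprostadil. The groups of uninjured and wound arrays were separated by 0.07 only, and the gene exceeded the array median on 1 array. In a fit without the filter its mean wound difference was -0.42 (SE 0.10), and a second, dimmer probe set differed by -0.14.

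Chromatin subunits that act with Bcl11 proteins, of the NuRD and BAF complexes, formed a list of 30 genes, 28 on the array and 27 tested. None passed for wound vehicle against uninjured vehicle in limma, with 2 at an unadjusted p under 0.05, as had 13.0% of all genes. The median was 0.013, where that of all tested genes was 0.0069. Smarca2, an ATPase of BAF complexes, differed by -0.39 (adjusted p = 0.367) and Bcl7a, a BAF subunit, by 0.31 (adjusted p = 0.289). None passed in the drug comparisons, with 1 at an unadjusted p under 0.05 for trimebutine (9.43% of all genes) and 0 for alprostadil (2.75%). With trimebutine Bcl7a differed by -0.48 (adjusted p = 0.528) and Smarca2 by 0.31 (adjusted p = 0.552), and with alprostadil by -0.19 and 0.16 (adjusted p = 0.998 for both).

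The COUP-TF genes had opposite differences. Nr2f2 (COUP-TFII) read 7.76, 7.79 and 8.02 in uninjured vehicle, 8.51, 8.37 and 8.65 in wound vehicle, 8.66, 8.45 and 8.67 with trimebutine, and 8.45, 8.40 and 8.13 with alprostadil. Every wound array was above every uninjured one, the nearest being alprostadil replicate 3 and uninjured replicate 3, which were 0.12 apart. The mean difference was 0.62 (SE 0.10), or 1.54-fold. Nr2f1 (COUP-TFI) read 8.91, 9.12 and 9.16 in uninjured vehicle, 8.57, 8.66 and 8.49 in wound vehicle, 8.94, 8.75 and 8.78 with trimebutine, and 8.62, 8.82 and 8.79 with alprostadil. Wound vehicle arrays were all below the uninjured arrays, by a mean of -0.49 (SE 0.10), and the means of both drug groups lay between those of the vehicle groups. Over the 3 wound groups the difference was -0.35 (SE 0.08), and trimebutine replicate 1 overlapped with uninjured replicate 1.

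Nuclear receptors and corepressors that share sites or partners with COUP-TFs formed a list of 15 genes, 12 on the array and 9 tested. None passed in limma in any of the 3 comparisons given for the lists, and none had an unadjusted p under 0.05 there. Of all genes 13.0% had one for wound vehicle, 9.43% for trimebutine and 2.75% for alprostadil. Rxra, the shared dimer partner, differed by -0.33 (adjusted p = 0.399) in wound vehicle and by 0.20 (adjusted p = 0.629) with trimebutine. Rara, a retinoic acid receptor, differed by 0.26 (adjusted p = 0.394) in wound vehicle, and its relative Rarb by -0.18 (adjusted p = 0.998) with alprostadil. Retinoic acid induces COUP-TF genes in several cell types, and a list of 19 genes of its synthesis, turnover and response had 17 on the array and 12 tested. In wound vehicle none of the 12 passed, and 2 had an unadjusted p under 0.05, where 13.0% of all genes did. The median of the list was -0.05, and that of all tested genes 0.0069.

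Dhrs3, a retinaldehyde reductase of that list, read 8.56, 7.99 and 9.10 on the uninjured arrays and between 9.84 and 10.87 on the 9 wound arrays, with no overlap. It was higher in the mean of the wound groups, by 1.81 (SE 0.23, adjusted p = 0.021, limma), where 0.243% of all genes passed. The list was chosen with earlier results of these data known, so this p-value is not independent support. The wound vehicle difference was 1.99 (SE 0.28, adjusted p = 0.0528). The call for the wound mean was lost without uninjured replicate 1 (adjusted p = 0.163), uninjured replicate 2 (0.101) or trimebutine replicate 2 (0.051). Tgm2, a transglutaminase inducible by retinoic acid, differed by -0.76 (adjusted p = 0.435) in wound vehicle, by 1.05 (adjusted p = 0.528) with trimebutine and by 0.46 (adjusted p = 0.998) with alprostadil. Crabp2, which carries retinoic acid to the nucleus, differed by 0.90 (adjusted p = 0.59) with trimebutine. For trimebutine 4 of the 12 retinoid genes had an unadjusted p under 0.05, as did 9.43% of all genes, and for alprostadil 0, against 2.75%, and none passed.

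Prdm8 was the factor with the largest positive difference. Its uninjured arrays read 6.41, 6.66 and 7.36, the wound vehicle arrays 8.87, 8.86 and 8.53, the trimebutine arrays 7.84, 7.87 and 7.71, and the alprostadil arrays 8.37, 8.55 and 7.47. All wound arrays lay above all uninjured arrays, but alprostadil replicate 3 was only 0.12 above uninjured replicate 3. The wound vehicle mean was 3.84-fold that of uninjured vehicle (1.94 log2 units, SE 0.29), and the mean of the wound groups 2.67-fold (1.42, SE 0.24). Uninjured replicates 1 and 2 lay below the array median, so both folds are set against dim values. The order of groups was wound vehicle (8.75 ± 0.19), alprostadil (8.13 ± 0.58), trimebutine (7.81 ± 0.09) and uninjured vehicle (6.81 ± 0.49). Neighbouring wound groups in that order overlapped, whereas wound vehicle and trimebutine did not.

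Other PR-domain genes, with the Prdm8 partner Bhlhe22, formed a list of 15, with 13 on the array and 11 tested. None passed for wound vehicle in limma, and 2 had an unadjusted p under 0.05, where 13.0% of all genes did. The median difference of all tested genes was 0.0069. Prdm1 (Blimp1), a repressor that marks papillary fibroblast progenitors in developing dermis, differed by -0.84 (SE 0.23, adjusted p = 0.204) and Prdm15 by 0.64 (adjusted p = 0.394), and the list median was 0.11. With trimebutine Mecom, an oncogenic PR-domain factor, differed by 0.84 and Prdm15 by -0.74 (adjusted p = 0.528 for both). None passed there, with 3 at an unadjusted p under 0.05 (9.43% of all genes), and none passed for alprostadil, with 1 (2.75% of all genes).

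Among the wound groups no factor passed the threshold in limma, and neither did any of the 13153 genes. For trimebutine against wound vehicle 0 of 8 tested factors passed (0% of all genes, smallest adjusted p 0.528), and 2 of 8, Prdm8 and Nr2f1, had an unadjusted p under 0.05, as did 9.43% of all genes. Prdm8 was lower with trimebutine on all 3 arrays, by a mean of -0.95 (SE 0.29, 95% interval -1.59 to -0.31, adjusted p = 0.528). Nr2f1 was higher on all 3, by 0.25 (SE 0.10, interval 0.03 to 0.47, adjusted p = 0.528). Bcl11b was lower on all 3, by -0.51 (SE 0.31, interval -1.19 to 0.17, adjusted p = 0.572). Those 3 of the 9 factors had no overlap, against 15.8% of all genes. For Gata2, Gata3, Gata4, Gata6 and Nr2f2 the differences lay between -0.12 and 0.09, with adjusted p from 0.7 to 0.915. The interval for Gata6 ran from -0.49 to 0.37, and that for Gata2 from -0.29 to 0.15.

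For alprostadil against wound vehicle 0 of 8 factors passed in limma (0% of all genes, smallest adjusted p 0.998), and 0 of 8 had an unadjusted p under 0.05, as did 2.75% of all genes. Prdm8 had the largest difference, -0.62 (SE 0.29, interval -1.26 to 0.02), and alprostadil replicate 3 was its lowest array. Without that array the difference was -0.29. The other 7 tested factors differed by -0.23 to 0.17, each with an adjusted p of 0.998. Only Bcl11a had no overlap between these groups, by -0.21, against 5.90% of all genes. The drug comparisons use the same wound vehicle arrays, so their values are not independent of each other.

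Trimebutine and alprostadil were also set against each other, at unstated doses. In limma 0 of 8 factors passed (0% of all genes, smallest adjusted p 0.752), and 1 of 8, Nr2f2, had an unadjusted p under 0.05, as did 4.42% of all genes. Nr2f2 was higher with trimebutine by 0.27 (SE 0.12, adjusted p = 0.752), with overlapping arrays. Bcl11b was lower with trimebutine by -0.49 (SE 0.31, interval -1.17 to 0.19, adjusted p = 0.752) and had no overlap, as did 11.2% of all genes. Without alprostadil replicate 3 that difference was -0.20. Prdm8 differed by -0.32 (interval -0.96 to 0.32, adjusted p = 0.768).

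**Figure D3:**
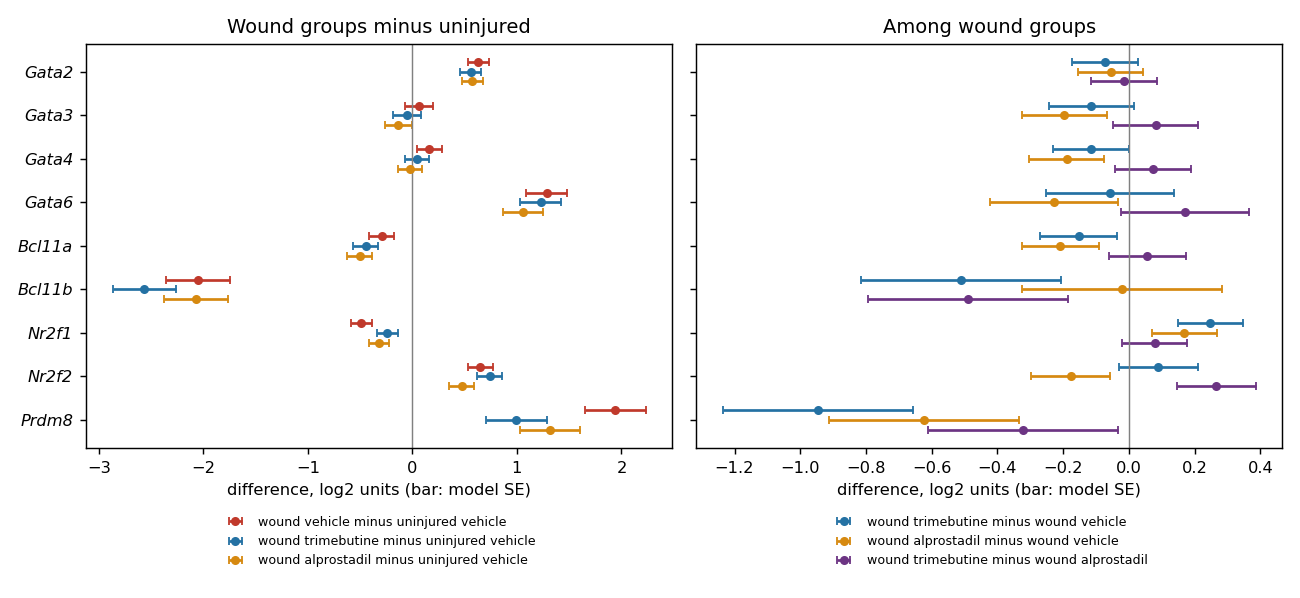
Difference in log2 level (horizontal axis) of each of the 9 factors (vertical axis) for the comparisons shown, with points for the difference and bars for the SE of the limma fit; the SE of Bcl11a is from the fit without the filter. For trimebutine against wound vehicle, Prdm8 (-0.95) and Bcl11b (-0.51) lie furthest below 0, and Gata2, Gata3, Gata4, Gata6 and Nr2f2 lie within 0.12 of it.

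The drug groups were also set beside uninjured vehicle. For the 6 factors whose wound and uninjured arrays did not overlap, every wound group must have the same sign of difference. Nothing is read from that sign, and only the sizes are given. The difference from uninjured vehicle was 1.94 in wound vehicle, 1.00 with trimebutine and 1.32 with alprostadil for Prdm8. It was -2.05, -2.56 and -2.07 for Bcl11b, 1.29, 1.23 and 1.06 for Gata6, and 0.65, 0.74 and 0.47 for Nr2f2. Nr2f1, which overlapped, had -0.49, -0.24 and -0.32. Counted group by group, 7 of 9 factors had no overlap with uninjured vehicle in wound vehicle, 6 with trimebutine and 7 with alprostadil, where 18.0%, 13.7% and 9.41% of all genes had none. These comparisons share the uninjured arrays and chose the factors, so nothing is read from the counts.

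The scatter among replicates differed between factors. The pooled SD over the 4 groups was 0.11 for Gata2 and Nr2f1, 0.14 for Gata4 and Bcl11a, 0.15 for Nr2f2 and 0.16 for Gata3, near or below the 0.17 of the median tested gene. It was 0.26 for Gata6, 0.39 for Prdm8 and 0.42 for Bcl11b. For the 6 factors without overlap the uninjured array nearest to the wound arrays was replicate 3 each time. The nearest wound array was alprostadil replicate 3 for Bcl11b, Nr2f2 and Prdm8. Leaving out an array cannot create an overlap, so the count of factors without overlap could not fall below 6. With each array left out in turn it was 6, or 7 without uninjured replicate 1 or trimebutine replicate 1. The share of all genes without overlap was 2.65% to 12.5%, the highest without uninjured replicate 3. This separation chose the factors, so nothing is read from these counts.

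Genes with the most similar profile were sought for the 3 factors that spanned over 1 log2 unit, by the mean absolute difference between centred profiles over the 12 arrays. For Gata6 they were Osbpl6, a lipid-binding protein gene (0.19), and Prtg, protogenin of the immunoglobulin superfamily (0.20), where the median tested gene was at 0.48. For Bcl11b they were Alb, albumin (0.26), and the predicted gene Gm16685 (0.29), where the median was 0.88. Alb read 8.97, 8.87 and 8.12 on the uninjured arrays and 6.29 to 7.50 on the wound arrays, so it was highest on the same 3 arrays as Bcl11b. For Prdm8 they were Dgkk, a diacylglycerol kinase, and Dhrs3, both at 0.29, where the median was 0.65. The 12 arrays are shared by every profile, and the likeness is given as a description.

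**Figure D4:**
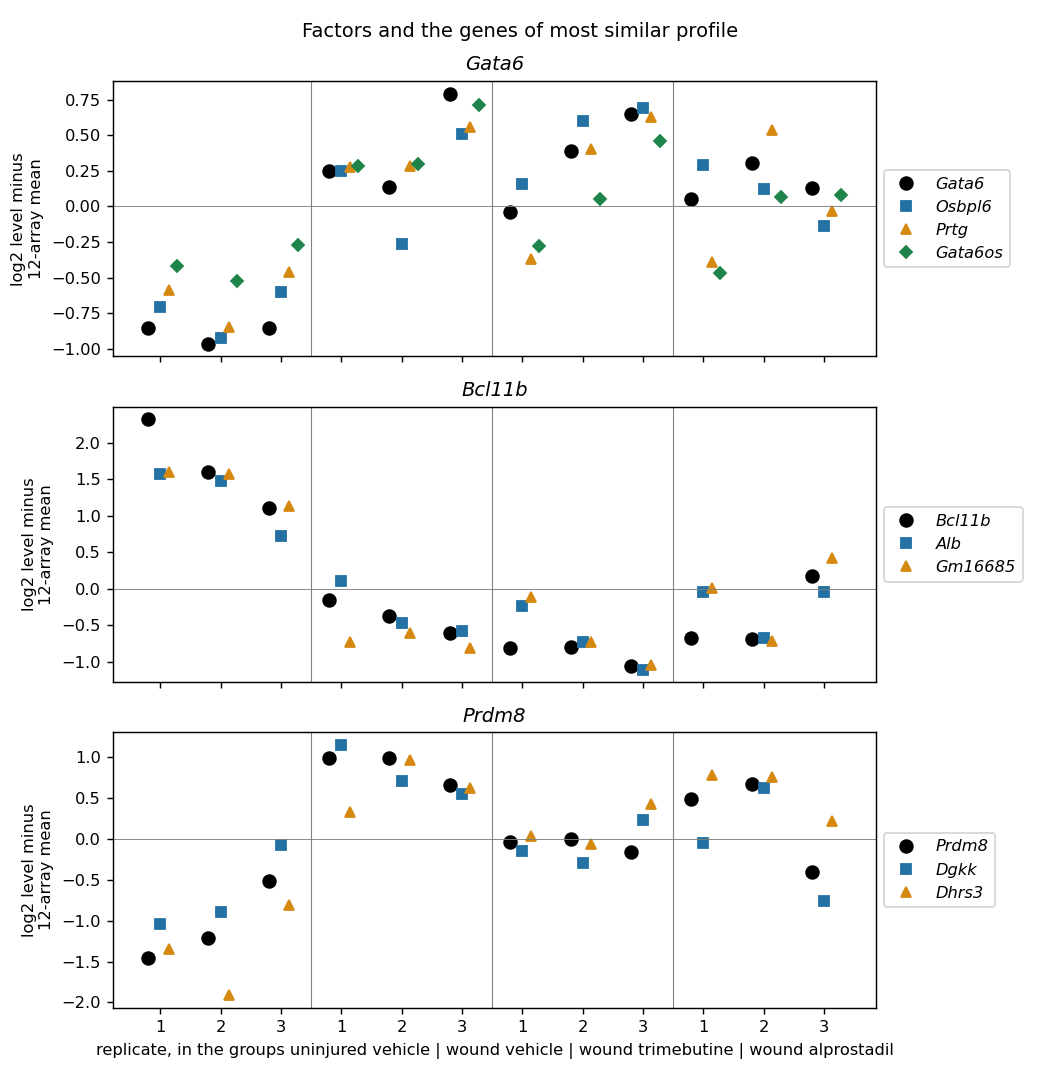
Log2 level minus the 12-array mean (vertical axis) on each array (horizontal axis, replicates 1 to 3 of each group) for Gata6, Bcl11b and Prdm8 as black circles and for the genes of most similar profile as coloured symbols, with Gata6os added to the Gata6 panel. Osbpl6 and Prtg lie with Gata6 below their mean on the 3 uninjured arrays, and Alb and Gm16685 lie with Bcl11b above theirs.

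The nearest gene with a probe set on each side of each factor was also examined, from the RefSeq order of genes. Of 18 such genes 10 were tested. In limma 0 passed for wound vehicle or for the wound mean against uninjured vehicle, where 0.0456% and 0.243% of all tested genes passed. For wound vehicle 2 had an unadjusted p under 0.05, as did 13.0% of all tested genes. For the wound mean 2 did, and the share over all genes was not counted. None of the 18 separated the wound from the uninjured arrays, where 2.56% of all tested genes did. Next to Nr2f2, Mctp2, a membrane protein gene with calcium-binding domains, differed by -1.15 in wound vehicle (SE 0.29, adjusted p = 0.195), opposite in sign to Nr2f2. Next to Prdm8, Antxr2, an anthrax toxin receptor gene, differed by 0.94 (SE 0.28, adjusted p = 0.23). The genes beside Gata6 and Bcl11b that were tested, Mib1 and Setd3, differed by 0.12 and -0.02.

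Of the annotated genes, 4 overlap a factor, and 3 of these were tested. Gata6os, a noncoding gene at Gata6, read 7.39, 7.29 and 7.54 in uninjured vehicle and 8.10, 8.11 and 8.52 in wound vehicle. Its drug arrays ran from 7.34 to 8.27 and overlapped with the uninjured ones. It differed by 0.84 in wound vehicle (SE 0.21, adjusted p = 0.19) and by 0.54 in the wound mean (adjusted p = 0.275). At Nr2f2 the noncoding B130024G19Rik differed by 0.35 (adjusted p = 0.6). The sources used here do not state whether the probe sets separate the strands, so signal from a factor and its overlapping gene may be shared.

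Genes known as direct targets of these factors in other tissues formed a list of 16, all on the array and 10 tested. None passed in limma for wound vehicle against uninjured vehicle, and 3 of the 10 had an unadjusted p under 0.05, where 13.0% of all genes did. The list median was -0.25, where that of all tested genes was 0.0069. Angpt1, an angiopoietin gene that Nr2f2 regulates, read 7.86, 7.44 and 6.42 in uninjured vehicle and 5.47, 5.56 and 7.12 in wound vehicle, a difference of -1.19 (adjusted p = 0.363) with overlap. With trimebutine it read 7.64, 7.57 and 7.64 and differed from wound vehicle by 1.57 (adjusted p = 0.528). Kit, the stem cell factor receptor that Gata2 activates, differed by 0.83 (adjusted p = 0.396) in wound vehicle. Nrp1, a co-receptor of VEGF, differed by 1.28 (adjusted p = 0.528) with trimebutine and by 0.55 (adjusted p = 0.998) with alprostadil. With trimebutine 2 of the 10 had an unadjusted p under 0.05, where 9.43% of all genes did, and with alprostadil 0, where 2.75% did, and none passed.

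All 11 fibroblast markers lay above the median on all 12 arrays, which does not by itself establish the identity of the cells. Their summed level was 16.27 to 16.45 in uninjured vehicle and 15.87 to 16.35 in wound vehicle. With trimebutine it was 16.40 to 16.42, and with alprostadil 16.00 to 16.40. Of 11 SKP markers 7 were above the median on all arrays, and Sox2 on none. Bcl11b and Gata3 are also T cell genes, and 8 of 8 T cell markers on the array, Cd3e and Cd4 among them, lay below the median on every array. The summed level of these T cell markers was 8.80 to 9.03 in uninjured vehicle and 8.80 to 8.92 over the wound groups.

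Markers of other cell types that express these factors were counted the same way, and summed levels follow for uninjured vehicle, wound vehicle, trimebutine and alprostadil in that order. Of 9 mast cell markers 6 were above the median on no array, among them Fcer1a and Ms4a2, while Kit was above it on 12 arrays, Cpa3 on 9 and Tpsb2 on 5, and the sums were 9.23 to 10.17, 9.39 to 10.08, 9.80 to 10.90 and 9.23 to 10.04. Of 12 endothelial markers 5 were above it on no array, Pecam1 and Tie1 among them, and 3 on all 12, Tek, Egfl7 and Flt4, and the sums were 10.14 to 10.40, 10.35 to 11.07, 10.34 to 10.74 and 10.39 to 11.01. Cdh5 (VE-cadherin) was above it on 11 arrays and reached 9.98 on 2 wound vehicle arrays, against 7.52 at most in uninjured vehicle. On wound vehicle replicate 3 it read 7.37, so the groups overlapped (limma adjusted p = 0.302). Of the 5 tested endothelial markers, 3 were higher and 2 lower in wound vehicle than in uninjured vehicle. Of 10 neuron markers 3 were above it on no array and 5 on all 12, and the sums were 10.12 to 10.30, 10.24 to 10.88, 10.55 to 11.15 and 10.38 to 10.81. Endothelial and neuron sums thus reached higher in the wound groups, the side on which Gata2, Nr2f2 and Prdm8 were higher. Bcl11a, Bcl11b and Nr2f1, which are also expressed in neurons, had lower means there, by -0.42, -2.23 and -0.35 over the wound groups. The part of endothelial cells and neurons in the differences of these factors was not tested.

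Of 13 cardiac and smooth muscle markers 6 were above the median on no array, among them Myh6 and Hand2, and 3 on all 12, Nkx2-5, Myh11 and Smtn, and the sums were 10.63 to 10.91, 10.72 to 11.03, 10.94 to 10.97 and 10.62 to 10.92. Tbx5, a limb and heart factor of that list, read 6.34 on average in uninjured vehicle and 7.94 over the wound arrays, and was above the median on 9 arrays. It entered the tested genes through the wound arrays, where it is high, so it is given without a test. It lay on the same side as Gata6. Of the 6 tested markers of the list, 4 were higher and 2 lower in wound vehicle than in uninjured vehicle. Their median difference was 0.05, and Tnnt2 differed by -0.36. The part of Tbx5 in the Gata6 difference was not tested. Of 9 keratinocyte markers 4 were above the median on no array and 3 on all 12, with sums of 9.96 to 10.14, 10.07 to 10.09, 10.03 to 10.08 and 10.03 to 10.39. Schwann cell sums over 6 markers were 9.35 to 9.77, 9.30 to 9.54, 9.50 to 9.90 and 9.44 to 9.65. Macrophage sums over 12 markers were 10.61 to 11.65, 11.21 to 12.17, 10.22 to 11.17 and 10.28 to 15.24, the highest on alprostadil replicate 1. Without that array 6 factors had no overlap, where 3.52% of all tested genes had none. This separation chose the factors, so nothing is read from the count. A part of macrophages in the differences was not tested. Over the 10 marker lists 59 genes were tested, and for wound vehicle none passed, with 12, or 20.3%, at an unadjusted p under 0.05, where 13.0% of all genes had one.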

How the data were processed

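Expression of the factors was measured on 12 Affymetrix Mouse Gene 2.0 ST arrays, 3 for each of the 4 groups. The deposited values are on a log2 scale, 1 for each probe set and array; the authors used RMA and oligo, per the submitters' processing notes, and no version is given in the sources used here. RMA shrinks the differences of dim probe sets, which bears on Bcl11a and on the wound levels of Bcl11b. The table holds 41345 probe sets, of which 23521 carry 1 symbol, 1814 several and 16010 none; only the first kind was used, the brightest per symbol, which left 22180 genes. Array medians were 6.57 to 6.74; with 3 arrays a group, precision is limited by their number.

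Genes above the array median on at least 3 arrays (13153) were fitted in 1 linear model over the 4 groups with limma 3.58.1 (R 4.3.3), with 8 residual degrees of freedom. P-values are two-sided and adjusted by Benjamini-Hochberg over all tested genes, with a threshold of 0.05. The code was tested on simulated data. The factors and all gene lists were chosen with earlier results of these data known. From each list of partners or targets, the text names genes past the threshold and genes with the largest differences in wound vehicle or with a drug, with marker lists given by counts and summed levels (log2 of the sum of unlogged values). The overlapping genes, Tbx5 and Cdh5 were added after seeing the data. Alternatives were leaving out each array, array weights, a replicate block, other filters, median centring, cyclic loess, the mean of a gene's probe sets, a trended and robust variance, and fits of only the groups compared. The labels give the groups the same replicate numbers and no reason for it. Deviations of arrays from their group means were correlated between groups. For same-numbered arrays the correlation was over 0.1 in all 3 pairs for alprostadil with wound vehicle (0.19 to 0.62). It was also over 0.1 in all 3 pairs for alprostadil with trimebutine (0.22 to 0.57). It was so in 2 of 3 pairs for trimebutine with wound vehicle (-0.17 to 0.29) and 0 of 3 for wound vehicle with uninjured vehicle (-0.64 to -0.36). With uninjured vehicle it was so in 1 of 3 for alprostadil and 2 of 3 for trimebutine. Differently numbered arrays of alprostadil and wound vehicle ran from -0.57 to 0.39, which exceeds the lowest same-numbered pair. These values therefore do not settle whether the numbers pair the arrays, and the main fit held no block. The labels name biological replicates and the series text independent isolates, and p-values rest on the spread of those isolates. Promoters come from RefSeq. Python 3.11.15 was used for promoters, and with matplotlib 3.10.9 for the figures.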

Additional observations from a re-analysis of the deposited data

How the results depend on the processing

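Among the wound groups, no factor passed the threshold under the alternatives run, except with array weights for trimebutine against wound vehicle, where Prdm8 (-1.01, limma adjusted p = 0.00615) and Bcl11b (-0.61, adjusted p = 0.0343) did. Those weights ran from 0.299 to 5.99, the highest on uninjured replicate 2 and trimebutine replicate 2. With them 4034 genes passed for trimebutine against wound vehicle, 4997 for wound vehicle and 4175 for the wound mean against uninjured vehicle, in place of 0, 6 and 32.

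For wound vehicle against uninjured vehicle 1 gene passed with median centring and 0 with only the groups compared. With each array left out, the count was 0 to 30 there, 0 to 76 for the wound mean, 0 to 11 for trimebutine against wound vehicle (11 without wound vehicle replicate 3), 0 to 1 for alprostadil against wound vehicle (1 without alprostadil replicate 2), and 0 to 1 for trimebutine against alprostadil (1 without alprostadil replicate 2 or wound vehicle replicate 3). The causes were not tested. For wound vehicle the count was 0 without uninjured replicate 1 or 2, trimebutine replicate 2 or wound vehicle replicate 1, 1 without alprostadil replicate 1 or wound vehicle replicate 2, and 3 without trimebutine replicate 3; it was 12, 22 and 30 without alprostadil replicate 2, alprostadil replicate 3 and uninjured replicate 3. For the wound mean the count was 0 without uninjured replicate 2, 4 without uninjured replicate 1, 6 without trimebutine replicate 2 or wound vehicle replicate 1, 8 without trimebutine replicate 3, 11 without wound vehicle replicate 3, 15 and 20 without alprostadil replicates 1 and 2, and 56, 60 and 76 without trimebutine replicate 1, uninjured replicate 3 and alprostadil replicate 3.

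Of the factors' differences, 8 changed sign in at least 1 alternative, over 19 fits in all, and none of the 8 was over 0.2 log2 units in size as reported. With array weights Gata6 became 0.15 for trimebutine against wound vehicle; for trimebutine against alprostadil Gata3 became -0.046, Gata4 -0.060 and Nr2f1 -0.016; and Gata3 became 0.053 for the wound mean. For alprostadil against wound vehicle Gata2 became 0.0056 with median centring and Bcl11b 0.041 with median centring and with cyclic loess. With the mean of probe sets Gata3 became -0.035 for trimebutine against alprostadil. Leaving out each array gave -0.22 to 0.14 for Gata6 with trimebutine against wound vehicle, -0.31 to 0.13 for Bcl11b with alprostadil against wound vehicle, and -0.091 to 0.013 for Gata3 in the wound mean. For trimebutine against alprostadil it gave -0.079 to 0.043 for Gata2, -0.078 to 0.20 for Gata3 and -0.027 to 0.20 for Gata4. Prdm8 for trimebutine against wound vehicle stayed between -1.06 and -0.89, with a smallest adjusted p of 0.128.

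With the replicate number as a block in the fit of the 4 groups, 2 genes passed for wound vehicle against uninjured vehicle, 29 for the wound mean and 0 in each drug comparison. No factor passed with the block, where Prdm8 for trimebutine had an adjusted p of 0.482 and Dhrs3 stayed past the threshold (0.0386). With the block and only the groups compared, chosen after seeing the data, 0 genes passed for alprostadil against wound vehicle and 0 for trimebutine against alprostadil. In those drug comparisons the block changed no call. Bcl11a was dim on 11 of the 12 arrays, Bcl11b on 6 and Prdm8 on 2, so their lower levels are bounded by the background of the array.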
